A study of Danio rerio with 4 samples.

Results

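The genes described here encode subunits of voltage-gated sodium, potassium and calcium channels, together with the potassium channels that share the kcn names without being opened by voltage alone. They were chosen by name, as the rows of the deposited table whose gene name begins with scn, a number and a or b, with kcn and a further letter, or with cacna, cacnb or cacng. The rule found 169 gene names, of which 168 had a value. Of these, 20 averaged 1 TPM or more over the 4 samples (TPM, an abundance per transcript length, has an equal total in every library). These 20 genes were tested, among 14217 tested genes of the 26267 with a value.

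RNA was sequenced in bulk from zebrafish (Danio rerio) neural crest cells, sorted for the fluorescence of a sox10:DsRed transgene, from pooled embryos at 20 hours post fertilization (hpf). Of the 4 samples, 2 came from nr2f mutant embryos and 2 from wild-type embryos, and all carried the sorting transgene. Titles of the mutant samples name nr2f2 and nr2f5, while their genotype field lists nr2f5 as mutant and nr2f2 as unknown; alleles and strain are not given in the sources used here. Embryo numbers in the design text were 88 and 35 for mutant pools and 110 and 120 for wild-type pools, not tied to replicate numbers. The comparison asks how the Nr2f nuclear receptors shape the fate of cranial ectomesenchyme, the crest-derived tissue of the face.

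Voltage-gated channels are built around a pore-forming alpha subunit, whose voltage sensors open the pore when the membrane depolarizes. Auxiliary subunits bind the alpha subunit and set its gating and its delivery to the cell surface; sodium channel beta subunits are also cell adhesion proteins of the immunoglobulin superfamily. Inward rectifier and tandem-pore potassium channels have no voltage sensor and mainly set the resting potential, which bears on cell volume, migration and growth in cells that fire no action potentials.

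All 32 neural crest and ectomesenchyme markers looked up averaged 1 TPM or more. Abundance of sox10, the gene whose promoter drives the reporter, was 590 and 461 TPM in mutant cells, against 411 and 318 TPM in wild-type cells. The mutated gene nr2f5 stood at 46.5 and 47.1 TPM in mutant cells and 579 and 559 TPM in wild-type cells. Its partner nr2f2 stood at 67.2 and 51.7 TPM in mutant cells and 73.5 and 59.3 TPM in wild-type cells. Over all genes, 580 of 14217 were called (limma, Benjamini-Hochberg adjusted p under 0.05), 161 higher and 419 lower in mutant cells; the split was 323 higher of 743 with median-ratio scaling and 235 higher of 489 with quantile normalization. By limma 2900 of the 14217 had an unadjusted p under 0.05, the share to set beside such counts below. Transcripts of other cells were also present and were uneven between samples. Summed epidermis and periderm markers came to 1064 and 853 TPM in mutant cells and 1166 and 5866 TPM in wild-type cells. Summed skeletal muscle markers came to 510 and 246 TPM in mutant cells and 1201 and 3664 TPM in wild-type cells. Wild-type replicate 2 was therefore the highest of the 4 samples for both lists.

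Channel genes were scarce in these cells, and those that were present were mostly not the pore-forming subunits of voltage-gated channels. Of the 168 channel genes with a value, 11.9% averaged 1 TPM or more, against 54.1% of all genes with a value, and 45 were listed at 0 in all 4 samples. No pore-forming subunit of a voltage-gated sodium, Kv-type potassium or calcium channel averaged 1 TPM. The names included 72 of them, of which 5 are sodium alpha, 49 Kv alpha and 18 calcium alpha1 subunits. Their median was 0.033 TPM, and 23 were listed at 0 in every sample. All 72 together summed to 7.47 and 7.83 TPM in mutant cells and 10.7 and 10.24 TPM in wild-type cells. By contrast, 12 of 43 genes classed by name as auxiliary subunits averaged 1 TPM or more. The 43 include all 16 genes named as calcium channel gamma subunits, of which 1 did so. Of 53 other potassium channel subunits (tandem-pore, inward rectifier, and calcium- or sodium-activated), 8 averaged 1 TPM or more. The auxiliary subunits summed to 30.4 and 36.3 TPM in mutant cells and 27.3 and 25.9 TPM in wild-type cells. Of this, the sodium channel beta gene scn4bb held 7.92 and 13.02 TPM in mutant cells and 0 and 1.34 TPM in wild-type cells. The higher mutant sums rested on that gene. Read depth is unknown for these libraries, so a value of 0 is given only as listed.

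**Figure D1:**
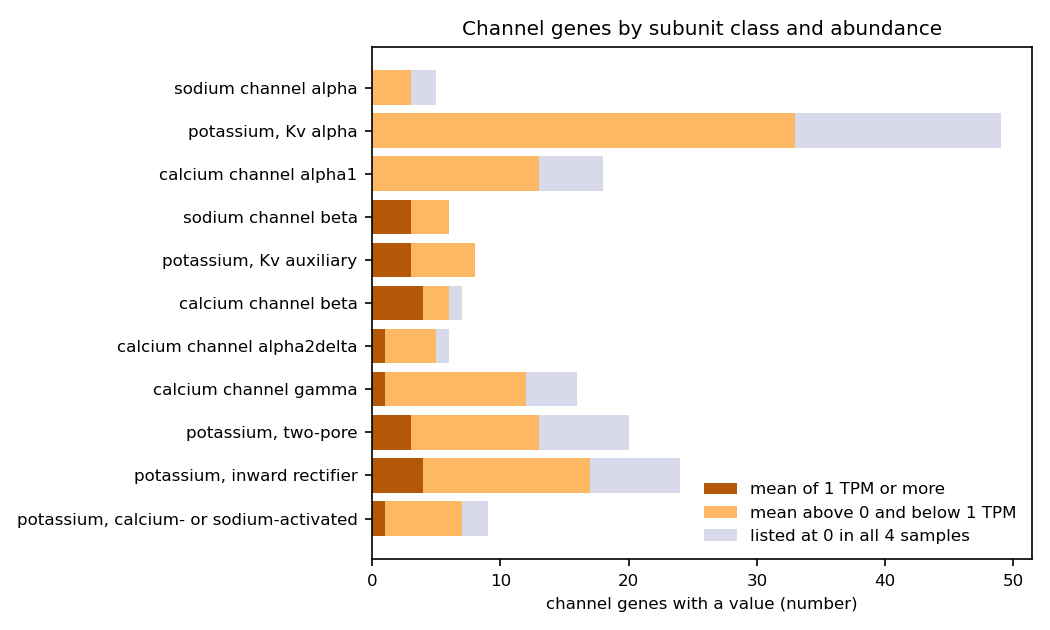
Number of channel genes with a value in each subunit class (bars, horizontal axis), split by their mean TPM over the 4 samples. The 3 upper bars, the 72 sodium alpha, Kv alpha and calcium alpha1 subunits, hold none with a mean of 1 TPM or more. The other classes hold between 1 and 4 each. The gene kcnma1a, whose channel opens on both calcium and voltage, is counted in the calcium- or sodium-activated class.

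Among the 72 pore-forming subunits, 3 reached 1 TPM in any sample. The gene kcnd1, a Kv4 potassium channel, had 0.869 and 0.601 TPM in mutant cells and 1.58 and 0.869 TPM in wild-type cells. The gene kcnb2, a Kv2 delayed rectifier, had 0.828 and 1.05 TPM in mutant cells and 0.569 and 0.905 TPM in wild-type cells. The L-type calcium channel gene cacna1db had 0.787 and 0.269 TPM in mutant cells and 1.02 and 1.05 TPM in wild-type cells. Its name joined 4 gene IDs, and 1 of them, which held 0.562 and 0.0864 TPM in mutant cells and 0 in both wild-type samples, is named cfap74 in the symbol table used here. The ID that carries the cacna1db symbol there, ENSDARG00000101589, had 0.225 and 0.183 TPM in mutant cells and 1.02 and 1.05 TPM in wild-type cells. These 3 genes, chosen after their values were seen, lay below the mean of 1 TPM and were not tested.

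Sodium channel genes were represented almost wholly by beta subunits. The 5 alpha genes summed to 0.802 and 0.0549 TPM in mutant cells and 0.0840 and 0.0971 TPM in wild-type cells, most of it scn12aa in mutant replicate 1. The muscle genes scn4aa and scn4ab were listed at 0 in all samples. The alpha genes scn1laa, scn1lab and scn5lab, whose names the rule does not match, averaged at most 0.0312 TPM. The 6 beta genes summed to 13.03 and 19.0 TPM in mutant cells, most of it scn4bb, and 4.28 and 6.03 TPM in wild-type cells. Of these, scn4bb, scn3b and scn1ba passed the mean of 1 TPM. The other beta genes, scn1bb, scn2b and scn4ba, were each listed at 0 in 3 samples.

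The beta4-type subunit gene scn4bb (ENSDARG00000060319) was the most abundant channel gene in mutant cells and rose there. It had 7.92 and 13.02 TPM in mutant cells, against a listed 0 in wild-type replicate 1 and 1.34 TPM in wild-type replicate 2. Both mutant samples lay far above both wild-type samples, and among the 168 channel genes scn4bb ranked 1 by its mutant mean and 33 by its wild-type mean. Its log2 fold change on the log2(TPM + 1) scale was 2.87 ± 0.48 (limma, moderated SE, n = 2 per group, adjusted p = 0.012). The size depends on the pseudocount, since wild-type replicate 1 was listed at 0. It ran from 1.44 to 4.76 over the 16 alternative settings. The sign was positive under all 16 alternative settings tried. These refit the same samples, whose groups lie far apart, so the constant sign adds no support. The wild-type mean was 0.669 TPM, so scn4bb passed the mean of 1 TPM through the mutant samples. The call did not survive leaving out either mutant sample, whereas it held without either wild-type sample. It was also lost with no filter on low values (limma adjusted p = 0.14). In all it was lost under 5 of the 16.

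The transcripts of scn4bb differed between the mutant samples. The transcript ENSDART00000084868 carried most of the signal, with 4.96 and 10.8 TPM in mutant cells, 0 in wild-type replicate 1 and 0.216 TPM in wild-type replicate 2, and rose when transcripts were tested one by one (log2 fold change 2.93 ± 0.46, limma adjusted p = 0.030). Of the lesser transcripts, ENSDART00000185364 was found in mutant replicate 1 alone, at 2.40 TPM. The transcript ENSDART00000125857 had 2.21 TPM in mutant replicate 2 and 0.373 TPM in wild-type replicate 2. The name scn4bb also covers a further gene ID, ENSDARG00000112427, which was listed at 0 in all samples but wild-type replicate 2, where it had 0.749 TPM. Tested by gene ID, ENSDARG00000060319 alone gave a log2 fold change of 3.15 (limma adjusted p = 0.0046), so the second ID lessened the difference. Both tests reuse the values behind the gene sum. The transcript and the ID each reached a mean of 1 TPM through the mutant samples. Neither test therefore adds support for the rise of scn4bb.

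The beta3 gene scn3b, known from neurons in mammals, had 3.54 and 4.55 TPM in mutant cells and 1.59 and 1.96 TPM in wild-type cells. Both mutant samples were higher, yet the difference did not pass (log2 fold change 0.86 ± 0.38, limma adjusted p = 0.23). The excess lay in ENSDART00000149017, with 2.95 and 3.40 TPM in mutant cells and 0.625 and 0.776 TPM in wild-type cells (log2 fold change 1.30 ± 0.39, limma adjusted p = 0.14). That transcript reached a mean of 1 TPM through the mutant samples, so its test adds no support. The other transcript, ENSDART00000149784, had 0.585 and 1.15 TPM in mutant cells and 0.961 and 1.18 TPM in wild-type cells. Its groups overlapped. The beta1 gene scn1ba leaned the other way, with 1.57 and 1.32 TPM in mutant cells and 2.42 and 2.49 TPM in wild-type cells. It did not pass either (log2 fold change -0.50 ± 0.39, limma adjusted p = 0.49). Thus the 3 beta genes did not share a direction. The markers of neurons, in which beta subunits are best known, summed to 409 and 337 TPM in mutant cells and 385 and 293 TPM in wild-type cells. Most of each sum was map2, at 282 and 224 TPM in mutant cells and 245 and 184 TPM in wild-type cells. Of the 15 neuron markers tested, 0 rose or fell by limma (1, neurod1, with an unadjusted p under 0.05, as had 2900 of all 14217 tested genes). The mutant samples were the higher pair for 3 of the 15 and the lower pair for 2, and the groups overlapped for 10. Of 15 tested markers of glia, 3 rose (s100b, egr2b and foxd3), 0 fell and 12 were not called. Of all tested genes, 1.13% rose and 2.95% fell. The gene foxd3 was also among the crest markers looked up. Both mutant samples lay above both wild-type samples for 4 glia markers and below them for 6. The shares over all tested genes were 18.2% above and 34.9% below. The median log2 fold change of the glia markers was -0.38. Among those not called, log2 fold changes ran from -1.85 for cx43 to 0.53 for sox10, which was also among the crest markers. The part of either cell type in the scn4bb values was not tested.

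**Figure D2:**
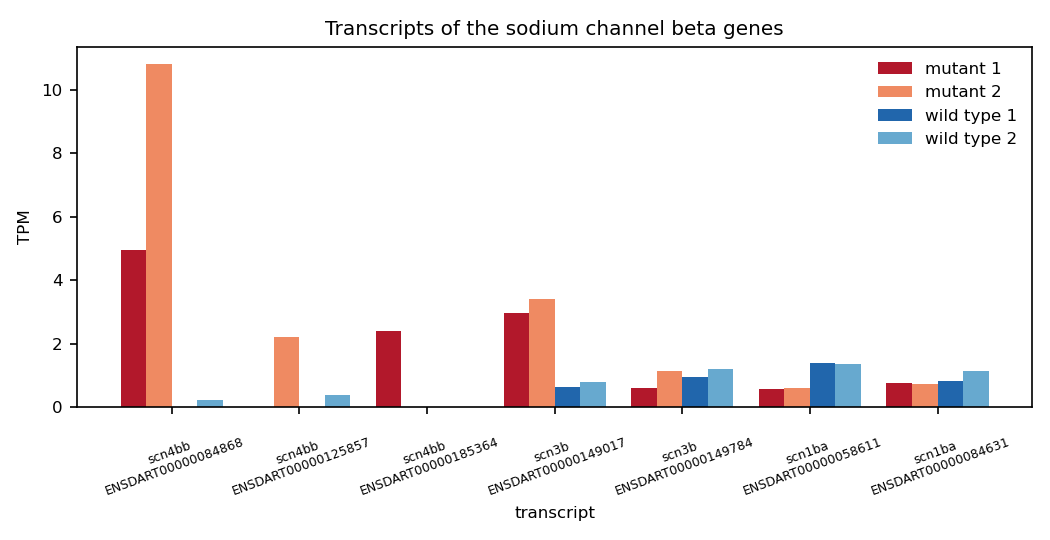
TPM (vertical axis, starting at 0) of the transcripts of scn4bb, scn3b and scn1ba that averaged over 0.5 TPM, with 1 bar per sample. The scn4bb bars of the mutant samples reach 4.96 and 10.8 TPM for the main transcript, while the wild-type bars stay at 0 and 0.216 TPM.

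Tandem-pore (two-pore-domain) potassium channels included the channel gene with the highest mean over the 4 samples, and none of the 3 tested was called. The gene kcnk5a, for a pH-sensitive background channel of the TASK-2 kind, was that gene. It had 5.36 and 4.94 TPM in mutant cells and 10.5 and 6.02 TPM in wild-type cells, with both mutant samples below both wild-type samples, but did not pass (log2 fold change -0.54 ± 0.35, limma adjusted p = 0.41). Its paralog kcnk5b, whose activating mutations cause fin overgrowth in zebrafish, had 3.82 and 5.20 TPM in mutant cells and 2.75 and 5.06 TPM in wild-type cells. The groups overlapped for kcnk5b (log2 fold change 0.20 ± 0.39, limma adjusted p = 0.80), and the sign was negative without wild-type replicate 1. The mechanosensitive TRAAK-type gene kcnk4a had 1.18 and 0.987 TPM in mutant cells and 2.01 and 1.37 TPM in wild-type cells (log2 fold change -0.36 ± 0.42, limma adjusted p = 0.65). Of 20 tandem-pore genes, these 3 held 10.4 and 11.1 of the 12.4 and 13.8 TPM in mutant cells and 15.2 and 12.5 of the 18.2 and 16.4 TPM in wild-type cells.

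Of the inward rectifier genes, all 4 that were tested were copies of kcnj1a. The class of 24 genes summed to 2.95 and 1.05 TPM in mutant cells, against 10.8 and 23.9 TPM in wild-type cells. The potassium-secreting channel ROMK works in the mammalian kidney and in ionocytes of fish skin. Its genes here were kcnj1b, which averaged 0.152 TPM and was not tested, and 6 copies of kcnj1a, kcnj1a.1 to kcnj1a.6. The 6 kcnj1a copies lie next to each other in the RefSeq annotation of GRCz12tu, a later assembly than that of the authors. Their order is 6, 5, 4, 3, 2, 1, and a fli1 gene borders kcnj1a.6. Reads may be split between such copies in ways the table does not show, so values of single copies are uncertain. The copy kcnj1a.4 had a listed 0 in both mutant samples, against 2.47 and 4.67 TPM in wild-type cells. It fell (limma, adjusted p = 0.031; no fold is given against samples listed at 0). The call did not survive leaving out mutant replicate 1 (adjusted p = 0.13), mutant replicate 2 (adjusted p = 0.17) or wild-type replicate 2 (adjusted p = 0.11), and was lost under 9 of 14 alternatives in all.

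The other kcnj1a copies, apart from kcnj1a.1, also had lower means in mutant cells. The copy kcnj1a.6 had 0.182 and 0.296 TPM in mutant cells and 1.59 and 4.35 TPM in wild-type cells (log2 fold change -1.59 ± 0.48, limma adjusted p = 0.11). The copy kcnj1a.2 had 0.247 and 0 TPM in mutant cells and 1.09 and 3.26 TPM in wild-type cells (log2 fold change -1.42 ± 0.50, limma adjusted p = 0.15). Neither passed. The groups did not overlap and the mutant pair was lower, as for 34.9% of all tested genes. The copy kcnj1a.3 had a listed 0 in 3 samples and 5.39 TPM in the remaining one, wild-type replicate 2, so its inclusion rested on that sample. Below the mean of 1 TPM, kcnj1a.5 had a listed 0 in both mutant samples, against 0.314 and 2.98 TPM in wild-type cells. The copy kcnj1a.1 had 0.300 and 0 TPM in mutant cells and 0 and 0.106 TPM in wild-type cells.

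Summed as 1 gene, a step added after the values were seen, the 6 copies had 0.729 and 0.296 TPM in mutant cells and 5.47 and 20.7 TPM in wild-type cells. The mutant and wild-type sums did not overlap, which was also so for 53.2% of all tested genes taken singly (34.9% with the mutant pair lower). No test of the sum is given as support, since the copies were pooled after their low values in mutant cells were seen and it exceeds 1 TPM through the wild-type samples alone. Epidermis markers, at 1064 and 853 TPM in mutant cells and 1166 and 5866 TPM in wild-type cells, were likewise highest in wild-type replicate 2. Of 24 tested epidermis markers, 0 rose, 2 fell (krt18a.1 and cdh1) and 22 were not called, with a median log2 fold change of -1.17. The groups overlapped for 17 of the 24, and the mutant samples were the lower pair for 6 and the higher pair for 1. Of all tested genes, 2.95% fell, and the mutant samples were the lower pair for 34.9%. The only epidermis marker of the 26 looked up that was listed at 0 in both mutant samples was krtt1c19e. Among ionocyte genes, looked up after the kcnj1a values were seen, foxi3b had 0.349 and 0.743 TPM in mutant cells and 1.80 and 4.46 TPM in wild-type cells. The sodium pump gene atp1a1a.2 had 0 and 0.651 TPM in mutant cells and 0 and 19.9 TPM in wild-type cells. Of the 20 ionocyte genes 7 were tested and 0 were called (limma, with 2 at an unadjusted p under 0.05, as were 2900 of all 14217 tested genes). Of the 7, the mutant samples were the lower pair for 3, and the groups overlapped for 4, with log2 fold changes of 0.30 for foxi3a, 0.25 for atp1a1a.1, 0.01 for atp1a1a.4 and -1.83 for atp1a1a.2. The list summed to 205 and 206 TPM in mutant cells and 250 and 185 TPM in wild-type cells. Most of each sum was atp1a1a.1, at 164 and 162 TPM in mutant cells and 191 and 97.5 TPM in wild-type cells. The gene atp6v1aa held a further 36.1 and 35.4 TPM in mutant cells and 49.4 and 45.8 TPM in wild-type cells. Of this list ceacam1 and gcm2 were listed at 0 in every sample. The gene trpv6 was listed at 0 in all but wild-type replicate 2, where it had 0.969 TPM. Both atp1a1a.5 and slc9a3.2 were listed at 0 in all but mutant replicate 1, at 0.0275 and 0.0941 TPM. The part of these cells in the kcnj1a values was not tested, and in bulk RNA fewer cells of a type and less RNA per cell cannot be told apart.

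**Figure D3:**
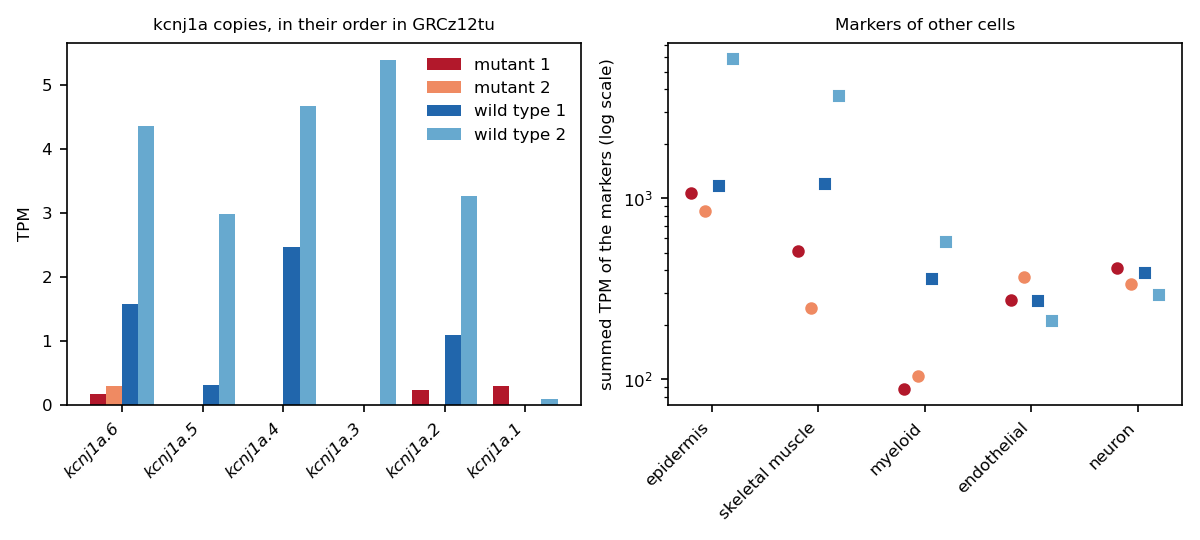
Left, TPM of the 6 kcnj1a copies in each sample (bars from 0), in their order in GRCz12tu; right, summed TPM of marker lists of other cells in each sample (log axis). Wild-type replicate 2 has the tallest bar for every copy but kcnj1a.1 and the highest epidermis, skeletal muscle and myeloid sums.

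Auxiliary subunits of Kv channels and the large-conductance channel gene kcnma1a showed no difference that passed. The Kv beta gene kcnab1a had 2.30 and 2.83 TPM in mutant cells and 3.39 and 0.817 TPM in wild-type cells. Its wild-type samples enclosed both mutant samples (log2 fold change 0.33 ± 0.48, limma adjusted p = 0.72), and the sign was negative without wild-type replicate 2. A second Kv beta gene, kcnab2a, had 1.59 and 1.44 TPM in mutant cells and 1.83 and 1.35 TPM in wild-type cells (log2 fold change -0.04 ± 0.41, limma adjusted p = 0.97), with a positive sign under median-ratio scaling and quantile normalization. The gene kcnip1b, for a calcium sensor that binds Kv4 channels, had 1.18 and 2.38 TPM in mutant cells and 1.12 and 1.81 TPM in wild-type cells (log2 fold change 0.15 ± 0.44, limma adjusted p = 0.87). For kcnma1a, whose channel opens on both calcium and voltage, the values were 1.21 and 2.55 TPM in mutant cells and 0.867 and 1.24 TPM in wild-type cells (log2 fold change 0.45 ± 0.44, limma adjusted p = 0.59). The groups overlapped for all 4 of these genes. The gene kcnip3a had no value in the table.

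Calcium channel genes were represented by beta subunits, which bring the alpha1 subunit to the membrane, and by 1 alpha2delta and 1 gamma subunit. The 4 beta genes above the threshold summed to 6.61 and 4.35 TPM in mutant cells and 6.79 and 4.18 TPM in wild-type cells. None was called by limma and none had an unadjusted p under 0.05. The gene cacnb2b, of the beta2 kind known from the heart, had 2.44 and 1.58 TPM in mutant cells and 1.70 and 0.417 TPM in wild-type cells (log2 fold change 0.61 ± 0.47, limma adjusted p = 0.49). Its paralog cacnb2a had 1.09 and 0.764 TPM in mutant cells and 1.202 and 1.25 TPM in wild-type cells (log2 fold change -0.21 ± 0.43, limma adjusted p = 0.81), and its sign was positive under quantile normalization. The neuronal beta gene cacnb4a had 1.30 and 1.47 TPM in mutant cells and 1.03 and 0.750 TPM in wild-type cells (log2 fold change 0.34 ± 0.43, limma adjusted p = 0.68). The alpha2delta gene cacna2d3, for an extracellular subunit that raises surface expression, had 1.39 and 2.17 TPM in mutant cells and 0.814 and 1.04 TPM in wild-type cells (log2 fold change 0.52 ± 0.43, limma adjusted p = 0.52). The mutant samples of cacnb4a and cacna2d3 were both above the wild-type samples, by less than the test required.

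The 2 tested channel genes of skeletal muscle had lower means in mutant cells and did not pass the test. The gene cacng1a, for the gamma1 subunit of the muscle calcium channel, had 0.270 and 0.0847 TPM in mutant cells and 1.13 and 2.90 TPM in wild-type cells (log2 fold change -1.29 ± 0.49, limma adjusted p = 0.17). It passed the mean of 1 TPM through the wild-type samples. The gene cacnb1, for the beta subunit needed for excitation-contraction coupling, had 1.78 and 0.536 TPM in mutant cells and 2.85 and 1.77 TPM in wild-type cells (log2 fold change -0.66 ± 0.46, limma adjusted p = 0.44). The groups overlapped for cacnb1. Of 16 genes listed as muscle channel genes, these 2 were the only ones with a mean of 1 TPM or more. Together the 16 summed to 3.57 and 1.26 TPM in mutant cells and 7.38 and 9.77 TPM in wild-type cells. The 2 groups did not overlap in this sum. Of all tested genes taken singly, 34.9% had both mutant samples below both wild-type samples. Among those below the threshold, picked after their values were seen, cacng6a had 0.451 and 0.601 TPM in mutant cells and 0 and 0.769 TPM in wild-type cells. Its mean was higher in mutant cells. The alpha2delta gene cacna2d1a had 0.220 and 0.0237 TPM in mutant cells and 1.04 and 1.62 TPM in wild-type cells. The alpha1 gene of the muscle channel, cacna1sb, had 0.236 and 0 TPM in mutant cells and 0.0704 and 0.726 TPM in wild-type cells. Skeletal muscle markers moved the same way as the sum of the 16: 9 of 30 tested fell, 0 rose and the median log2 fold change was -2.21. Only actn3a of the 33 looked up was listed at 0 in both mutant samples. Myeloid markers also moved that way, with 12 of 18 tested falling and 1 rising. Their sum was 88.4 and 104 TPM in mutant cells and 358 and 569 TPM in wild-type cells. Of all tested genes, 2.95% fell and 1.13% rose. The part of muscle cells in the muscle channel values was not tested.

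The lists looked up for channel genes of neurons and of ear, pigment cells or heart gave no call. Neither list held scn4bb, the channel gene that rose. Of 46 neuronal channel genes with a value, 5 were tested and 0 were called (limma; 1, scn3b, with an unadjusted p under 0.05). They summed to 13.7 and 15.8 TPM in mutant cells and 15.7 and 14.9 TPM in wild-type cells. Of the 46, 18 were listed at 0 in both mutant samples. By sample, 20 and 21 were listed at 0 in mutant cells and 16 and 20 in wild-type cells. Of 14 ear, pigment cell or heart channel genes with a value, 3 were tested and 0 were called by limma (0 with an unadjusted p under 0.05), and they summed to 6.90 and 5.53 TPM in mutant cells and 5.70 and 4.86 TPM in wild-type cells. The inward rectifier gene kcnj13, which shapes adult pigment stripes in zebrafish and was picked after its values were seen, had 0.218 and 0.336 TPM in mutant cells and 0.300 and 0.227 TPM in wild-type cells.

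**Figure D4:**
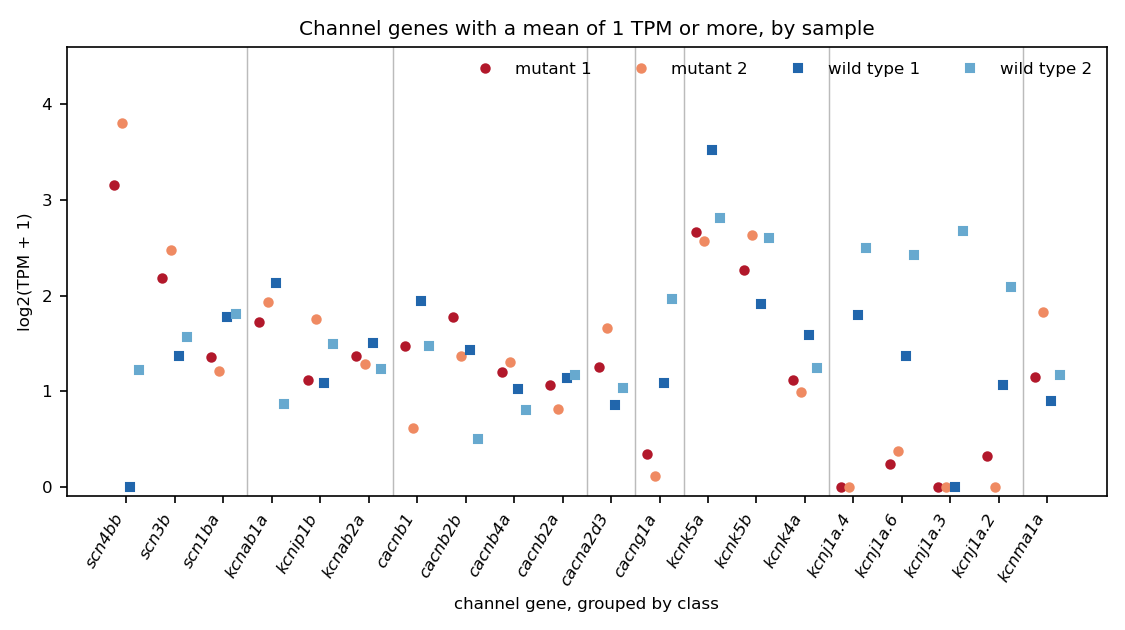
Abundance of each of the 20 channel genes, as log2(TPM + 1) on the vertical axis, with 1 point per sample and grey lines between classes. Both mutant points lie above both wild-type points for 4 genes, scn4bb among them. Both lie below for 8, among them kcnj1a.4, kcnj1a.6 and kcnj1a.2. The shares over all tested genes were 18.2% above and 34.9% below.

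Of the 20 tested channel genes 1 rose (scn4bb), 1 fell (kcnj1a.4) and 18 were not called, where 4.08% of all tested genes were called, 1.13% rising and 2.95% falling. Both mutant samples lay above both wild-type samples for 4 of the 20 and below them for 8, against 18.2% and 34.9% of all tested genes (53.2% in either direction). These shares were close to the background. Several genes, such as scn4bb, cacng1a and the kcnj1a copies, passed the mean of 1 TPM only through the group in which they were high, so the counts are a description. The median log2 fold change of the 20 was -0.13, against -0.16 for all tested genes. The call of scn4bb held and that of kcnj1a.4 did not at quantile normalization (adjusted p = 0.0076 and 0.064).

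**Figure D5:**
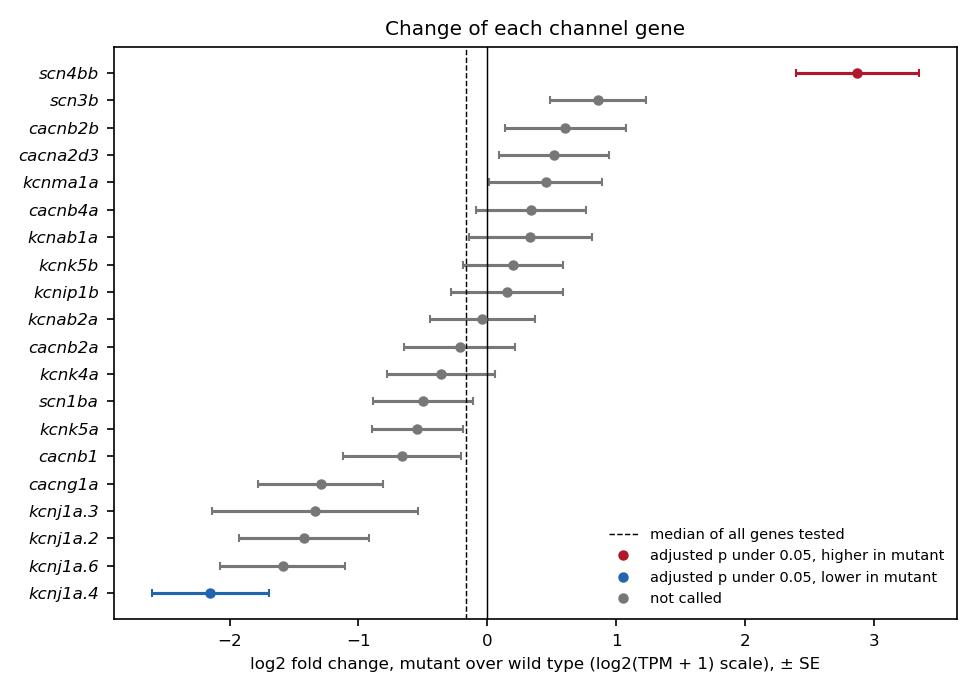
Log2 fold change of each tested channel gene, mutant over wild type, on the log2(TPM + 1) scale (points) with the moderated SE (bars, n = 2 per group); the dashed line marks the median of all tested genes at -0.16. The gene scn4bb at 2.87 stands apart from the rest, and the 4 kcnj1a copies lie at the low end. Values of copies listed at 0 in mutant cells depend on the pseudocount, as does that of scn4bb, listed at 0 in wild-type replicate 1.

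The threshold of 1 TPM passed close to several members. Just inside it lay cacnb2a (mean of 1.08 TPM), cacng1a (1.09 TPM), cacnb4a (1.14 TPM) and kcnj1a.2 (1.15 TPM). Just outside it lay cacnb4b (mean of 0.987 TPM), kcnd1 (0.980 TPM) and kcnk6 (0.887 TPM). With no filter on low values, 123 channel genes could be tested. Of these 12 had an unadjusted p under 0.05 and 0 were called by limma, the smallest adjusted p being 0.13 for kcnj1a.4. Of all 22610 genes in that setting, 3446 had an unadjusted p under 0.05.

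The channels work on ionic gradients that pumps maintain. Of 13 tested genes of the sodium-potassium pump and its FXYD regulators, 2 rose, 0 fell and 11 were not called, with a median log2 fold change of 0.25. Of all tested genes, 1.13% rose and 2.95% fell. Both fxyd1, for the pump regulator phospholemman, and atp1b3a, for a pump beta subunit, rose. The gene fxyd1 had 109 and 115 TPM in mutant cells and 17.7 and 23.9 TPM in wild-type cells (log2 fold change 2.38 ± 0.20, limma adjusted p = 5.35e-04), and its call held when any 1 sample was left out but was lost under 2 of 16 alternatives (adjusted p up to 0.068). The gene atp1b3a had 168 and 168 TPM in mutant cells and 108 and 73.0 TPM in wild-type cells (log2 fold change 0.91 ± 0.18, limma adjusted p = 0.025). Its call did not survive leaving out mutant replicate 1 (adjusted p = 0.14), mutant replicate 2 (adjusted p = 0.19) or wild-type replicate 2 (adjusted p = 0.066) and was lost under 6 of 16 alternatives in all (adjusted p up to 0.20).

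Of the calcium handling genes, 12 were tested, for calcium pumps, calsequestrin, junctophilins, Stac3 and store-operated entry, while the ryanodine and IP3 receptor genes with a value averaged under 1 TPM. By limma 0 of the 12 were called, 4 had an unadjusted p under 0.05, and the median log2 fold change was -0.90. Such a p was reached by 2900 of all 14217 tested genes. The muscle calcium pump gene atp2a1, singled out after its values were seen, with 7.16 and 4.06 TPM in mutant cells and 45.7 and 206 TPM in wild-type cells (adjusted p = 0.14), had the lowest log2 fold change of that list, -3.93 ± 0.87. Of 9 tested chloride transporter, anoctamin, TRP and Piezo genes, 0 were called by limma and 0 had an unadjusted p under 0.05, and the median was -0.20. The HCN genes with a value and the leak channel gene nalcn averaged under 1 TPM and were not tested. Among 14 tested channel scaffold and regulator genes, 1 rose and 1 fell, both for calmodulin, the calcium sensor that gates several channels. Of all tested genes, 1.13% rose and 2.95% fell. The gene calm2a had 294 and 262 TPM in mutant cells and 152 and 199 TPM in wild-type cells (log2 fold change 0.67 ± 0.15, limma adjusted p = 0.038). The gene calm1a had 75.3 and 101 TPM in mutant cells and 195 and 159 TPM in wild-type cells (log2 fold change -1.01 ± 0.18, limma adjusted p = 0.014). The most abundant calmodulin genes were not called. Of these, calm3b had 1238 and 1269 TPM in mutant cells and 1395 and 1383 TPM in wild-type cells. The other, calm3a, had 900 and 914 TPM in mutant cells and 849 and 975 TPM in wild-type cells. The division of reads between calmodulin copies is uncertain. Leaving out mutant replicate 1 (adjusted p = 0.20), mutant replicate 2 (adjusted p = 0.17) or wild-type replicate 1 (adjusted p = 0.11) ended the call of calm2a, which was lost under 8 of 16 alternatives in all (adjusted p up to 0.25). Leaving out mutant replicate 1 (adjusted p = 0.11) ended that of calm1a, lost under 3 of 16 (adjusted p up to 0.17).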

How the data were processed

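Bulk RNA sequencing of 4 samples was used, 2 per group, named biological replicates by the labels. The authors deposited 1 table of TPM for 65905 Ensembl transcripts, of which 57775 had a value, and each column summed to 1e+06. Per the submitters' processing notes, kallisto and GRCz11 were used; versions and annotation release are not given in the sources used here. Per the labels' protocols, cDNA was amplified with the SMARTer kit before library preparation. TPM keeps no depth, so no counting interval was computed. The number of value columns left without a sample was 0.

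TPM was summed per gene name (per gene ID where blank), which joined several IDs for 23 of the 169 channel names. Of the 198 channel gene IDs, 172 were in the symbol table and 2 of these had another gene's name there. Genes averaging at least 1 TPM were tested as log2(TPM + 1) with limma 3.58.1 in R 4.3.3 (trend and robust, with statmod 1.5.0), mutant over wild type, two-sided, with Benjamini-Hochberg adjustment over 14217 genes and a threshold of 0.05. The procedure was run on simulated normal values drawn with the fit's own spread. Such values hold no listed zeros, so that run cannot speak for genes near 0 TPM. A label permutation of 2 against 2 samples cannot give a p below 0.333. Samples left out were dropped with the set of tested genes kept.

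Named genes were every called channel gene, the 3 most abundant of each class, and up to 12 further members whose groups did not overlap. These took in all 20. Some, not all, called genes of other lists were also named. The text marks only some of the genes outside this rule as picked after their values were seen. Members and lists were chosen with earlier results of these data known.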

Additional observations from a re-analysis of the deposited data

How the results depend on the processing

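Results were recomputed under 16 alternatives. The count of all genes called, 580, was 4 when low values were kept and 0 with plain limma, lacking trend and robust (2531 with an unadjusted p under 0.05), and 110 to 647 when 1 sample was left out: 149 and 110 lacking mutant replicate 1 or 2, and 374 lacking wild-type replicate 2. The 1 channel gene that rose became 0 with a pseudocount of 0.1 TPM, unfiltered, and with plain limma (6 of 20 with an unadjusted p under 0.05), and 0 to 1 when 1 sample was left out. The 1 that fell became 0 with the same 3 settings, with a filter at 5 TPM, with quantile normalization, per transcript and with the replicate block, and 0 to 3 when 1 sample was left out; the 3 without wild-type replicate 1 were kcnj1a.3, kcnj1a.4 and kcnj1a.6.

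The median log2 fold change of channel genes, -0.13, was -0.22 with a pseudocount of 0.1 TPM, -0.044 with 5 TPM, 1.16 over the 2 genes averaging at least 5 TPM, -0.039 with median-ratio scaling and 0.27 with quantile normalization. It was -0.22 after removing mitochondrially encoded and ribosomal protein genes and rescaling, -0.24 per gene ID, -0.32 per transcript, 0.15 with the kcnj1a copies summed, and -0.21 to -0.13 when 1 sample was left out. The median of all genes moved to -0.03 with median-ratio scaling and 0.03 with quantile normalization.

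Signs reversed for cacnb2a (0.18) and kcnk4a (0.028) with quantile normalization, and for kcnab2a with median-ratio scaling (0.058) and quantile normalization (0.35). When 1 sample was left out, the log2 fold change ranged from -0.30 to 0.97 for kcnab1a, from -0.15 to 0.54 for kcnk5b, from -0.17 to 0.47 for kcnip1b and from -0.17 to 0.10 for kcnab2a. None of these was called, and the causes were not tested.

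The labels do not say that replicate numbers pair samples, and deviations of same-numbered samples from their group means correlated at -0.012 across genes. With the replicate block 565 genes were called, scn4bb was called (adjusted p = 0.014) and kcnj1a.4 was not (adjusted p = 0.05). Depth is unknown, and most channel genes lay under 1 TPM, where the table can show little.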
